A study of Homo sapiens with 20 samples.

Results

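The pericentromeric baits of chromosomes 1 and 16 are the capture fragments of a Poised Enhancer Capture Hi-C experiment that lie on chromosome 16 between positions 34000000 and 47000000 or on chromosome 1 between 121000000 and 126000000 (GRCh38). They were 41 of 28903 baits, and they held 2108 of the 766138 contacts listed in the deposited matrix. The chromosome 16 window had 28 baits with 1286 contacts and the chromosome 1 window had 13 baits with 822 contacts. The windows were chosen by the scores of their contacts, several of which were high in all 10 conditions, so the recurrence of these contacts is given as a description and nothing rests on it.

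The study asked how contacts of poised enhancers change as naive human pluripotent stem cells move to the primed state. Biotinylated RNA baits enriched a Hi-C library, cut with DpnII, for fragments that hold such enhancers. Cells of HNES1, a human pluripotent stem cell line, were taken in the naive state (day 0) and at 6 later days (1, 3, 5, 7, 10 or 14) of the change to primed medium (N2B27 with XAV939), and day 14 cells were taken further to definitive endoderm (DE) or neuroectoderm (NE). H9, a second line, was grown as primed cells in another medium, so line and medium cannot be told apart in it. Each condition had 2 libraries, and the matrix gave 1 pooled CHiCAGO score per condition, so no difference between conditions could be tested against replicate spread. CHiCAGO scores a pair of fragments by how far its read count exceeds what distance and technical background predict. Contacts with a score of at least 5 were taken as called, and each listed contact reached that score in at least 1 condition. Read depth is unknown.

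Large blocks of constitutive heterochromatin stand beside the centromeres of chromosomes 1 and 16. They are built from tandem satellite repeats, and arrays of related satellite lie beside several other centromeres. Such repeats are packaged with heterochromatin marks and DNA methylation, which is low in naive human pluripotent cells. In the immunodeficiency syndrome linked to the DNA methyltransferase DNMT3B, the blocks of chromosomes 1 and 16 are among those that stretch and fuse. Arrays of near-identical copies are also hard to place in a reference genome, so a read pair there can match several places.

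Many of the baits crowded at the edge of a long stretch in which the matrix listed no fragment. On chromosome 16 this stretch ran from 36340603 to 46381705 (10.0 Mb), and on chromosome 1 from 125184134 to 143195743 (18.0 Mb). Each was the longest such stretch of its chromosome. The fragment identifiers advanced by only 130 across the chromosome 16 stretch and by 25 across the chromosome 1 stretch, against a usual step of 1 identifier per 5.02 kb on chromosome 2, so few fragments had been numbered inside them. On chromosome 16, 13 of the 28 baits lay within 25 kb of the stretch and held 1017 contacts, and 11 baits lay on its other, short-arm side. Most of these 11 were not at the edge but 1614 to 1746 kb from it. All 13 baits of chromosome 1 lay before its stretch, 8 of them within 25 kb, and these 8 held 763 of the 822 contacts. Bait fragments had a median length of 664 bp, against 622 bp for all baits, and their other ends a median of 5250 bp, against 5255 bp.

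A pair of baits stood far above the rest in the number of contacts. Poised Enhancer11607 (chr16:46390065-46390538), 8.36 kb beyond the long-arm edge of the chromosome 16 stretch, had 740 listed contacts, more than any other bait of the series. Poised Enhancer1763 (chr1:125183675-125184134), the last fragment before the chromosome 1 stretch, had 721 and ranked next. Together they held 69.3% of the 2108 contacts (95% Wilson interval 67.3 to 71.2). The highest count at any bait outside the windows was 386, and the next bait inside them, Poised Enhancer11608, had 81. After it came Poised Enhancer11581 with 71, Poised Enhancer11609 with 44, Poised Enhancer11610 with 41 and Poised Enhancer11606 with 39, all above the median of 23.0 over all baits. The median bait of the windows had 10.0 contacts and the fewest was 2. Only 30 partners were shared by both large baits, which is 4.05% of the partners of Poised Enhancer11607 and 4.16% of those of Poised Enhancer1763. Because contacts of 1 bait share that bait's fragment, the Wilson intervals on shares of contacts cover counting error only and are too narrow.

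No annotated gene lay within 1 kb of the baits that carried the recurrent contacts. The long-arm baits Poised Enhancer11606, Poised Enhancer11607 and Poised Enhancer11608 were 79.5, 78.8 and 77.9 kb from the pseudogene ANKRD26P1, and the nearest protein-coding gene was SHCBP1, at 189, 188 and 187 kb. The short-arm bait Poised Enhancer11581 (chr16:34595031-34595444) was 162 kb from the noncoding RNA LOC102724523. For Poised Enhancer1763 the nearest gene was the pseudogene EMBP1, 3612 kb away. Bait Poised Enhancer1743 lay in SRGAP2C, a human-specific copy of a gene of neuronal development, and Poised Enhancer11618 was 1.76 kb from GPT2, a mitochondrial alanine aminotransferase. These 2 gene-side baits had 33 and 26 contacts, and none of them was called in more than 1 condition.

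Across the matrix 70 contacts were called in all 10 conditions, which is 0.00914% of those listed. The windows held 11 of the 70 (15.7%, interval 9.01 to 26.0) with 0.142% of the baits. By kind, they held 7 of 61 such contacts within a chromosome and 4 of 9 between chromosomes. Of the 8 that spanned over 1 Mb within a chromosome, 7 came from the chromosome 16 window. A pair listed from both its baits counts here once for each listing. With each pair counted once, the windows held 10 of 69 (14.5%, interval 8.07 to 24.7). These counts restate the choice of the windows. At the edge of that choice, 12 further baits within 1 Mb outside the windows had 361 listed contacts, at most 101 for 1 bait, and 0 called in all 10 conditions. On 13 other chromosomes, 170 baits lay within 1 Mb of the longest unlisted stretch. Many of them were on chromosome 13, whose longest stretch was only 0.173 Mb (111670612 to 111843496). The 170 baits are thus not a set beside large gaps only. They had 4294 contacts, of which 3 were called in all 10 conditions (0.0699%, against 0.522% in the windows). Poised Enhancer12602 on chromosome 17 held 2 of these 3. Most contacts of the windows, 1921 of 2108 (91.1%), were called in 1 condition, and 187 (8.87%) were called in 2 or more, against 3.48% of all listed contacts.

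All 7 recurrent contacts within a chromosome joined both sides of the chromosome 16 stretch, 11.8 Mb apart. The pair of Poised Enhancer11581 and Poised Enhancer11606 was listed from each of its baits, and both listings are among the 7. On the long-arm side stood Poised Enhancer11606 (chr16:46389224-46389869), Poised Enhancer11607 and Poised Enhancer11608 (chr16:46390694-46391459). On the short-arm side stood Poised Enhancer11581 and the uncaptured fragments chr16:34571526-34576702, here fragment A, and chr16:34587700-34592189, here fragment C. Another fragment between them, chr16:34581971-34587699, is here fragment B. Poised Enhancer11581 and fragments A, B and C lay 1745 to 1764 kb from the stretch. They were thus outside the 1 Mb used below to class partners as beside a stretch.

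Listed from Poised Enhancer11581, the contact with Poised Enhancer11606 scored 138 in naive cells, 94.2 on day 1, 115 on day 3, 133 on day 5, 28.5 on day 7, 162 on day 10, 80.6 on day 14, 156 in H9, 233 in endoderm (DE) and 300 in neuroectoderm (NE). It was far above 5 in each condition, but the conditions are not ranked by it, since the same pair listed from Poised Enhancer11606 scored 103 on day 7, 27.4 in DE and 28.5 in NE. Listed from Poised Enhancer11607, the contact with Poised Enhancer11581 scored 79.1, 77.1, 27.8, 28.5, 84.1, 77.0 and 91.8 from the naive state to day 14 in the same order, 27.8 in H9 and DE and 28.5 in NE. Its values fell into 2 groups, near 28 and near 80. With fragment A, Poised Enhancer11607 scored between 27.4 on day 3 and 176 in NE, with a median of 42.1. With fragment C it scored between 27.1 on day 3 and 81.0 in naive cells, with a median of 43.8. Poised Enhancer11608 scored 21.5 to 108 with Poised Enhancer11581 and 19.1 to 64.7 with fragment C, the highest on day 5. The plot of scores of contacts called in 8 or more conditions shows that neighbouring baits had the same partners.

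**Figure D1:**
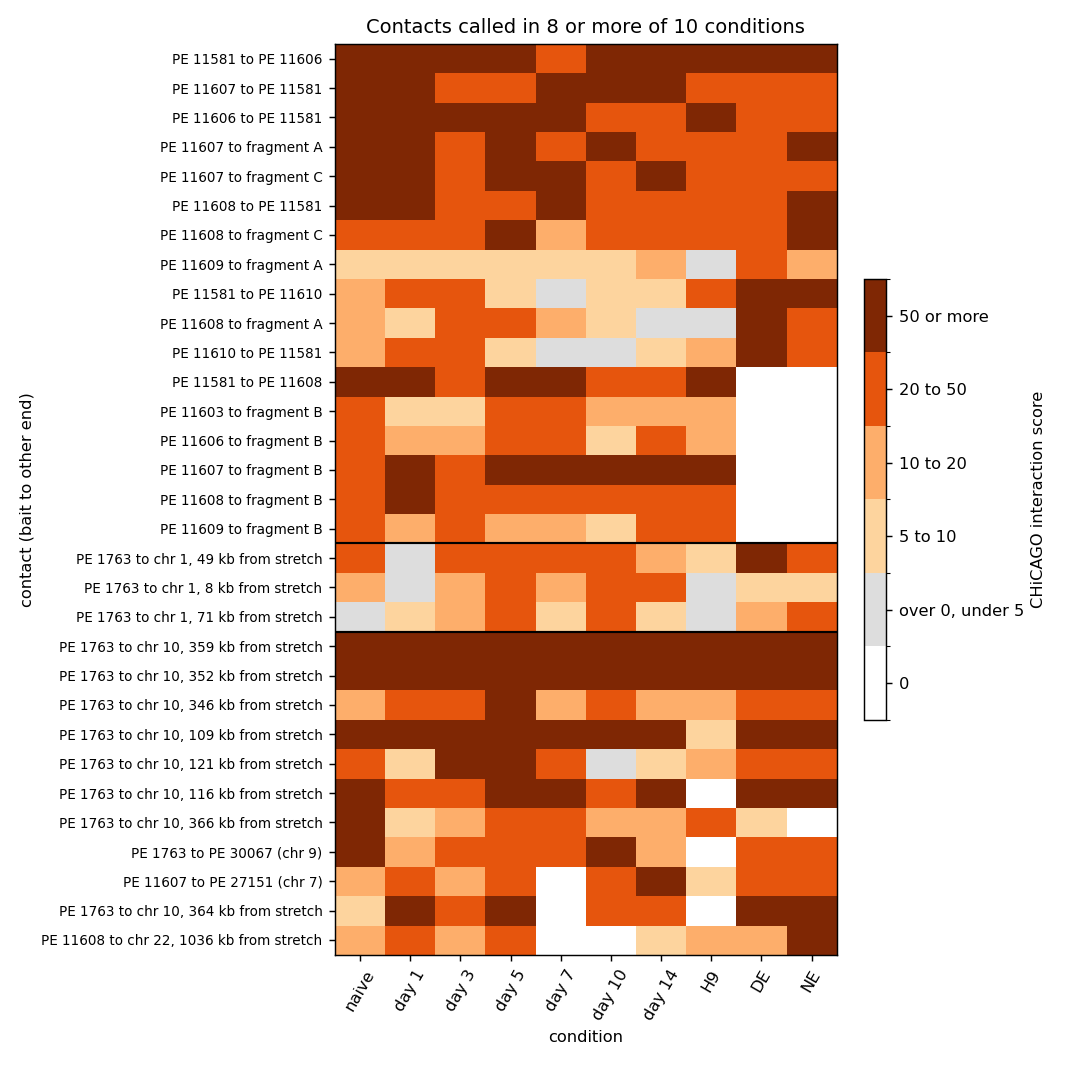
Interaction score (colour) of each of the 31 contacts called in 8 or more of 10 conditions (vertical axis, bait to other end, PE for Poised Enhancer) in each condition (horizontal axis); lines part contacts within chromosome 16, within chromosome 1 and between chromosomes. The upper 7 contacts and 4 chromosome 10 contacts of PE 1763 are coloured throughout, while 6 chromosome 16 contacts are at 0 (white) in DE and NE alone.

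Many of these scores repeated the same few values. Among member contacts within chromosomes, 54 scores lay between 27 and 28.5, and all 54 were within 0.05 of 28.46 or of that value less the natural logarithm of 2, 3 or 4 (27.76, 27.36 and 27.07). The 4 values held 31, 18, 4 and 1 of them. In contacts called in all 10 conditions, 26 of 110 scores were in this range and 0 lay from 28.5 to 30. Outside the windows 58 of 806889 called scores lay in it. The origin of these repeated values was not tested, so conditions with scores near 28 are not ranked against each other here.

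A fragment pair in which both ends are baits can be listed from either bait, and 29 member pairs were. In 24 of the 29 both listings gave the same call in every condition (82.8%, interval 65.5 to 92.4). This share is thus no rate of agreement over all pairs of baits. Of the 24, only the pairs of Poised Enhancer11581 with Poised Enhancer11606, Poised Enhancer11609 and Poised Enhancer11612 were called in 2 or more conditions. All pairs whose calls differed were called in 2 or more conditions. The pair of Poised Enhancer11581 and Poised Enhancer11607 differed most. Listed from Poised Enhancer11607 it was called in all 10 conditions, as given above, while listed from Poised Enhancer11581 it scored 187 on day 3, 122 on day 10 and 0 in the other 8 conditions. The pair of Poised Enhancer11581 and Poised Enhancer11608 scored 0 in DE and 0 in NE from Poised Enhancer11581, and 27.8 and 108 from Poised Enhancer11608. In all, 10 scores from these 2 pairs were 0 one way and 20 or more the other way. The pair of Poised Enhancer11581 and Poised Enhancer11606 was called both ways throughout, yet scored 233 and 300 one way in DE and NE and 27.4 and 28.5 the other way. At these fragments a score of 0 from one bait thus stood beside a called score from the other.

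**Figure D2:**
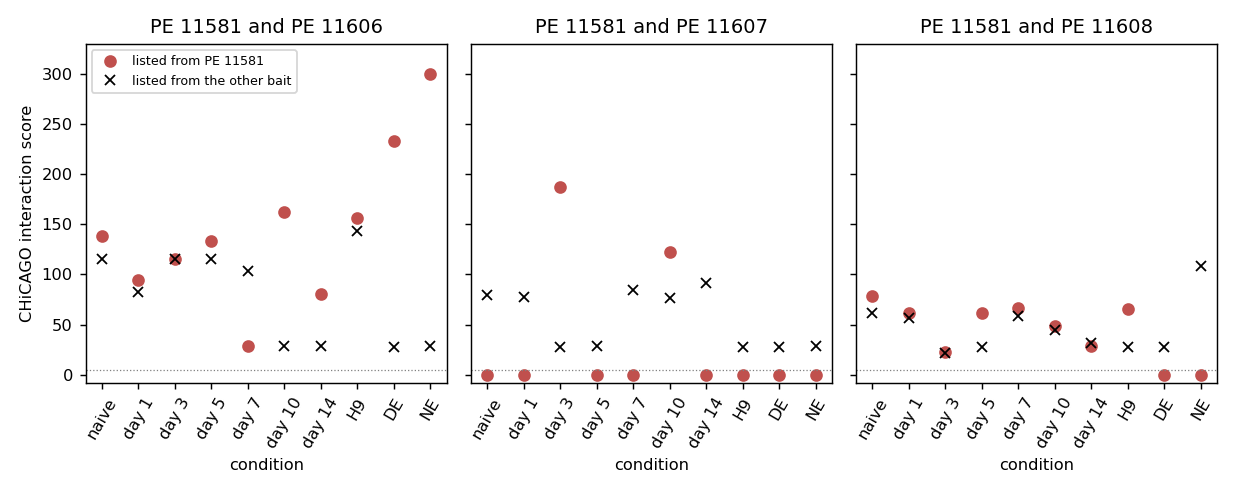
Interaction score (vertical axis) of 3 bait pairs in each of 10 conditions (horizontal axis), listed from PE 11581 (circles) or from the other bait (crosses); the dotted line is the call at 5. For PE 11581 and PE 11607 the circles are at 0 in 8 conditions where the crosses are at 27.8 or above.

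Fragment B was listed with 13 baits, 11 of them in the windows. Its contact with Poised Enhancer11607 scored 27.8 in naive cells, 205 on day 1, 28.5 on day 3, 234 on day 5, 203 on day 7, 252 on day 10, 251 on day 14 and 317 in H9, the highest of its 10 values, and 0 in both DE and NE. Baits Poised Enhancer11603, Poised Enhancer11606, Poised Enhancer11608 and Poised Enhancer11609 also called fragment B in all 8 other conditions and scored 0 with it in DE and NE. All 13 listings of fragment B were at 0 in DE and in NE, whereas 7 to 11 of them were above 0 in each of the other conditions. Of 18 member contacts called in all 8 conditions other than DE and NE, 11 were called in both DE and NE, and 6 were 0 in both, 5 of them with fragment B. Across the series 88 contacts were called in those 8 conditions (0.0115% of the listed contacts), and the same 6 were its only ones at 0 in both. Among 1426 other ends with 10 or more listings and a score above 0 in each of the 8 conditions, fragment B was the only one at 0 in both DE and NE, and among 12286 with 5 or more listings it was 1 of 4. Without the demand on the 8 conditions, 142 of 24729 other ends with 5 or more listings were at 0 in both, and 2 of 1487 with 10 or more. Other ends chr16:46390539-46390693 (6 listings), chr1:125175921-125178811 (4) and Poised Enhancer11608 (3) were also at 0 in DE and NE throughout. Fragment C, adjacent to fragment B, scored 27.8 or more with Poised Enhancer11607 in DE and NE. Fragment B is no bait, so no listing from its own side can be set beside its zeros.

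Contacts across the stretch made up most of those within chromosome 16. Of 101 listed for its window, 71 crossed the stretch (70.3%, interval 60.8 to 78.3), as did 43 of the 48 called in 2 or more conditions and 17 of the 17 called in 8 or more. Here too, pairs listed from both baits count once for each listing. In the whole series, the windows included, 0.210% of contacts within a chromosome crossed the longest unlisted stretch. No such share was computed for baits beside other stretches, so 0.210% is no like comparison for the 70.3%. The number called across the chromosome 16 stretch was 25 in naive cells, then 22, 28, 28, 21, 25 and 26 on days 1 to 14. It was 30 in H9, then 34 in DE with 44 in NE. Over all listed contacts within chromosomes the share called was also higher in the lineages, 10.0% in naive cells against 16.2% in DE and 17.9% in NE. Contacts on the same side of the stretch spanned a median of 134 kb and were few, 0 to 8 in each condition. In the chromosome 1 window 15 of 24 contacts within the chromosome crossed the stretch, 18.0 to 18.1 Mb long, and their partners lay in the megabase from 143 to 144 Mb. They numbered 5 in naive cells, 1 on day 1, 3 on day 3, 12 on day 5, 4 on day 7, 9 on day 10, 9 on day 14, 1 in H9, then 12 in DE with 13 in NE. The one seen most often, of Poised Enhancer1763 with chr1:143244346-143250596, was called in 9 conditions and scored between 1.99 on day 1 and 74.4 in DE.

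All 4 recurrent contacts between chromosomes joined Poised Enhancer1763 to chromosome 10, beside that chromosome's own longest unlisted stretch of 2.20 Mb. The partner chr10:42092964-42098614, 359 kb from that stretch, scored 232 in naive cells, 143 on day 1, 58.6 on day 3, 292 on day 5, 97.3 on day 7, 190 on day 10, 89.5 on day 14, 63.0 in H9, then 322 in DE with 257 in NE. It was high in every condition, with its lowest values on day 3 and in H9. The partner chr10:42086682-42091341 ranged from 53.3 in H9 to 193 in DE, and chr10:42080089-42084855 from 14.5 on day 14 to 102 on day 5. The partner chr10:41843362-41849792, 109 kb from the stretch, scored 90.6 to 218 in all conditions but day 1 (50.1) and H9 (7.57). The nearest gene to each was the pseudogene KSR1P1, at 50.7, 58.0, 64.5 and 300 kb. Fragments next to them were also called in 8 or 9 conditions, so the chromosome 10 partners of Poised Enhancer1763 formed 2 runs rather than single fragments. No chromosome 10 contact of the chromosome 16 window was called in all 10 conditions.

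Other contacts between chromosomes that were called in 8 or 9 conditions ended on chromosomes 7, 9 and 22. Poised Enhancer1763 and Poised Enhancer30067 (chr9:43318859-43319184), 39.2 kb from the stretch of chromosome 9, scored 10.4 to 72.8 in 9 conditions and 0 in H9. Poised Enhancer11607 and Poised Enhancer27151 (chr7:58033023-58033710), 83.4 kb from the stretch of chromosome 7, scored 6.52 to 50.8 in 9 conditions and 0 on day 7. Poised Enhancer11608 and chr22:16332761-16338511, 1036 kb from the stretch, scored 7.15 to 64.8 in 8 conditions and 0 on days 7 and 10.

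Partners on other chromosomes often lay beside a stretch of this kind. Within 1 Mb of it were 191 of 1983 partners (9.63%, interval 8.41 to 11.0), against 0.682% (0.661 to 0.703) for baits outside the windows. For 170 baits of 13 other chromosomes that themselves lay within 1 Mb of a stretch the share was 4.15% (3.56 to 4.84). Many of these baits lay beside the 0.173 Mb stretch of chromosome 13, so they are no close match for the windows. By recurrence, again only as a description, it was 6.77% among contacts called in 1 condition, 53.7% (44.9 to 62.4) in 2 or more and 85.2% (67.5 to 94.1) in 5 or more. In the group called in 2 or more, baits outside the windows had 4.01% (2.81 to 5.70) and the 170 baits beside other stretches 28.8% (18.8 to 41.4). By window, 58.3% of contacts in 2 or more conditions ended there from chromosome 1 and 36.0% from chromosome 16, with intervals of 48.3 to 67.7 and 20.2 to 55.5 that overlap. Most of the recurrent contacts came from the 2 largest baits. Without those, the share over all partners was 6.94% (5.14 to 9.32), and 4 of the 7 partners left in 2 or more conditions lay there.

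**Figure D3:**
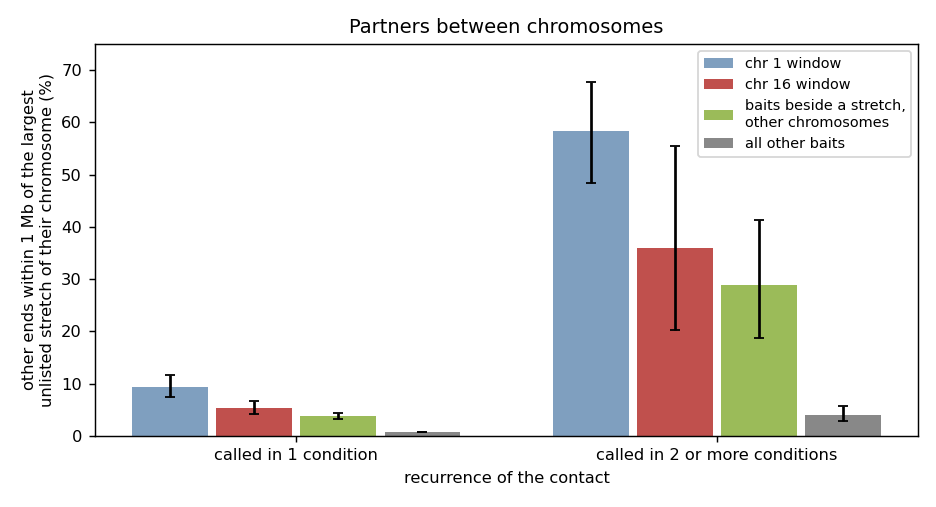
Share of partners between chromosomes (vertical axis, %) that lay within 1 Mb of the longest unlisted stretch of their chromosome, for contacts called in 1 condition or in 2 or more (horizontal axis), with bars for the 2 windows, baits beside a stretch on other chromosomes and all other baits; error bars are 95% Wilson intervals. In 2 or more conditions the bars stand at 58.3% and 36.0% for the windows and at 28.8% and 4.01% for the others. Many of the baits beside a stretch on other chromosomes are those of chromosome 13, whose stretch was 0.173 Mb.

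The windows also contacted each other. From chromosome 1, 61 of 798 partners on other chromosomes lay in the chromosome 16 window (7.64%, interval 6.00 to 9.70), against 0.0710% of the partners of outside baits. Of these 61, 27 were called in 2 or more conditions, none in more than 6. They fell mostly in the megabase from 34 to 35 Mb (29 contacts) and that from 46 to 47 Mb (18 contacts), which hold both ends of the contacts across the chromosome 16 stretch. In the other direction, 5 of 1185 partners of chromosome 16 baits lay in the chromosome 1 window (0.422%, interval 0.180 to 0.984), against 0.00942%. Without Poised Enhancer1763 the share of partners in the other window, 3.33% over both directions, was 0.468%. Contacts between chromosomes from baits outside the windows reached into them 451 times from 428 baits, and 447 of these contacts were called in 1 condition.

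By place, the megabase from 42 to 43 Mb of chromosome 10 held 27 contacts of chromosome 1 baits, 17 of them in 2 or more conditions, and that from 41 to 42 Mb held 7. For chromosome 16 baits the leading places on other chromosomes were the first megabase of chromosome 6, with 17 contacts of 4 baits, and the megabase from 62 to 63 Mb of chromosome 7, with 12 contacts of 4 baits. On chromosome 6, 10 of the other ends lay within 1 kb of DUSP22, a dual-specificity phosphatase, and none of these was called in more than 2 conditions. That place was called 2 times in naive cells, 0 times on days 1, 3 and 5, 3 times on day 7, 1 time on day 10, 1 time on day 14, 5 times in H9 and NE and 4 times in DE.

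An annotated gene stood within 1 kb of the other end in 1108 of 2108 contacts of the windows (52.6%, interval 50.4 to 54.7), against 71.0% (70.9 to 71.1) for baits outside them. Without the 2 largest baits the share was 55.5% (51.6 to 59.3). Split by recurrence, on which the windows were chosen and which is given here as a description only, a gene stood there in 1093 of 1921 contacts called in 1 condition (56.9%, interval 54.7 to 59.1), in 14 of 123 called in 2 to 4 (11.4%, 6.90 to 18.2) and in 1 of 64 called in 5 or more (1.56%, 0.276 to 8.33). Of the 187 called in 2 or more conditions, Poised Enhancer1763 held 110 and Poised Enhancer11607 held 30. For baits outside the windows the share was 70.9% in 1 condition and 73.4% in 2 or more. The 1 gene in 5 or more conditions was the pseudogene DUX4L44, a relative of the germline and early-embryo transcription factor DUX4. Of 301 annotated members of gene families with copies beside centromeres, 17 had a contact and 5 had one called in 2 or more conditions, namely DUX4L44, ANKRD26P1, DUX4L18, DUX4L19 and DUX4L17. Of 16 single-copy genes on the long arm beside the chromosome 16 window, 4 had a contact and only GPT2 had one in more than 1 condition, at most 3. None of 18 short-arm genes of chromosome 16 or of 12 short-arm genes of chromosome 1 had a contact. Among 24 long-arm genes of chromosome 1, PRKAB2, a subunit of the energy sensor AMPK, had one, in 1 condition. Over all 59778 annotated genes 1203 lay within 1 kb of either end of a contact of these baits. For 13 the contact was called in 2 or more conditions, 3 of them protein-coding (GPT2, DUSP22 and ZNF717). These counts, like those of the gene lists, take in genes at the bait's own end. GPT2 had 13 of its 14 contacts that way, while the rest of the 13 genes had theirs at the other end only.

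In each condition a count of called contacts was set beside the share of all listed contacts called there. The windows had 205 calls in naive cells (9.72% of their contacts, against 6.27% of all), 187 on day 1 (8.87% against 5.71%), 196 on day 3 (9.30% against 7.12%) and 217 on day 5 (10.3% against 6.37%). They had 155 on day 7 (7.35% against 6.07%), 179 on day 10 (8.49% against 6.38%), 150 on day 14 (7.12% against 6.78%) and 128 in H9 (6.07% against 8.12%). DE had 673 (31.9% against 28.3%) and NE 614 (29.1% against 24.5%). The windows were chosen for recurrence, so nothing is read from the gap to the background. DE and NE held the most calls in the windows as in the matrix as a whole. Of the 41 baits, 19 had calls in DE or NE alone and 10 had calls in all 10 conditions. The same counts over all baits are not given here, so neither is read as a trait of these baits. Within chromosomes, the windows had 38 calls in naive cells, 32 on day 1, 39 on day 3, 43 on day 5, 31 on day 7, 37 on day 10, 40 on day 14, 37 in H9, then 58 in DE with 62 in NE. These were 24.8% to 34.4% of their 125 listed contacts of that kind up to H9, 46.4% in DE and 49.6% in NE. Of all contacts within chromosomes, 10.0% were called in naive cells, 10.1% on day 1, 12.4% on day 3, 11.7% on day 5, 10.2% on day 7, 10.3% on day 10, 11.2% on day 14, 13.0% in H9, then 16.2% in DE with 17.9% in NE. Between chromosomes, the windows had 167 calls in naive cells, 155 on day 1, 157 on day 3, 174 on day 5, 124 on day 7, 142 on day 10, 110 on day 14, 91 in H9, then 615 in DE (31.0%) with 552 in NE (27.8%). Of all contacts between chromosomes, 5.10% were called in naive cells, 4.35% on day 1, 5.46% on day 3, 4.71% on day 5, 4.76% on day 7, 5.15% on day 10, 5.38% on day 14, 6.59% in H9, then 32.1% in DE with 26.6% in NE. The larger step to DE and NE between chromosomes than within them was thus also seen over the whole matrix.

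**Figure D4:**
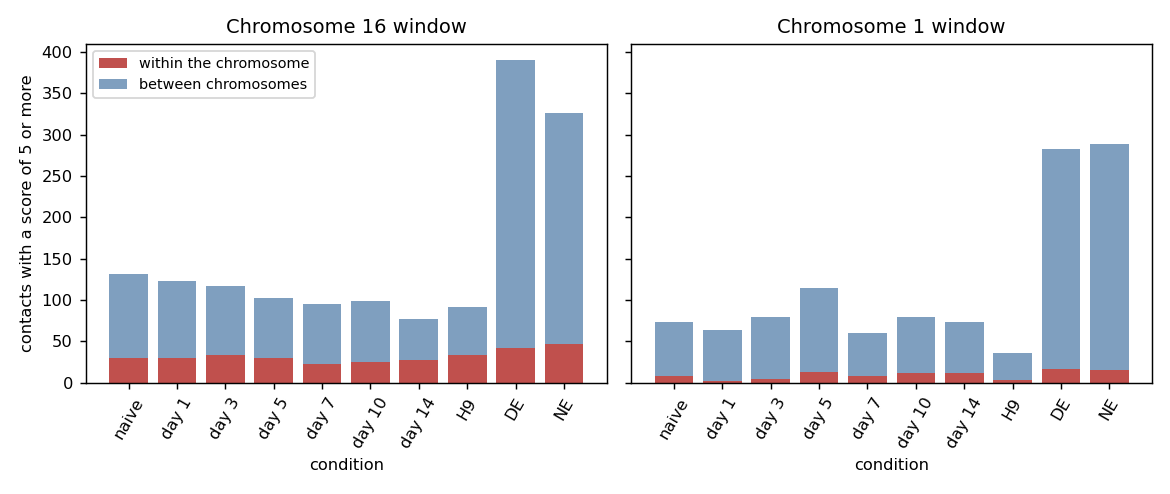
Number of contacts with a score of 5 or more (vertical axis) in each condition (horizontal axis) for the chromosome 16 window (left) and the chromosome 1 window (right), stacked as contacts within the chromosome and between chromosomes. Calls between chromosomes rise to 348 and 279 in DE and NE on the left and to 267 and 273 on the right.

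Over the 7 time points of HNES1, calls in both windows together correlated with the day at r = -0.71 (two-sided exact permutation test, p = 0.0764, adjusted over 3 measures 0.115; rho = -0.71, p = 0.0881, adjusted 0.132). Calls between chromosomes had r = -0.80 (exact permutation p = 0.0327, adjusted 0.0982; rho = -0.71, p = 0.0881, adjusted 0.132). Calls within chromosomes had r = 0.20 (exact permutation p = 0.678, adjusted 0.678; rho = 0.14, p = 0.783, adjusted 0.783). None of the 3 passed after adjustment. The windows were chosen by the scores of these same contacts, so nothing rests on these correlations. Without days 10 and 14 the r of all calls was -0.47 and that between chromosomes -0.56, and without the naive state and day 14, which lie as far from the median day, they were -0.38 and -0.49. At a score of 10 or more the r of all calls was -0.11 and that between chromosomes -0.24. Leaving out Poised Enhancer11607, a setting that was not planned, gave -0.30 and -0.43, so both values leaned on this bait. The smallest p this design allows is 0.000397.

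The windows taken apart are given as a description, with no test, since this split was made after seeing the counts. Chromosome 16 had 132 calls in naive cells, 123 on day 1, 117 on day 3, 102 on day 5, 95 on day 7, 99 on day 10 and 77 on day 14. Each count was below the one before it except on day 10. H9 had 92, DE 390 and NE 326. Chromosome 1 had 73, 64, 79, 115, 60, 80 and 73 calls in the same order of days, highest on day 5, and 36 in H9, 283 in DE and 288 in NE. Without Poised Enhancer11607 the chromosome 16 window had 39 to 60 calls over the time points, and at a score of 10 or more it had 20 to 28. The difference between the windows was not tested.

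**Figure D5:**
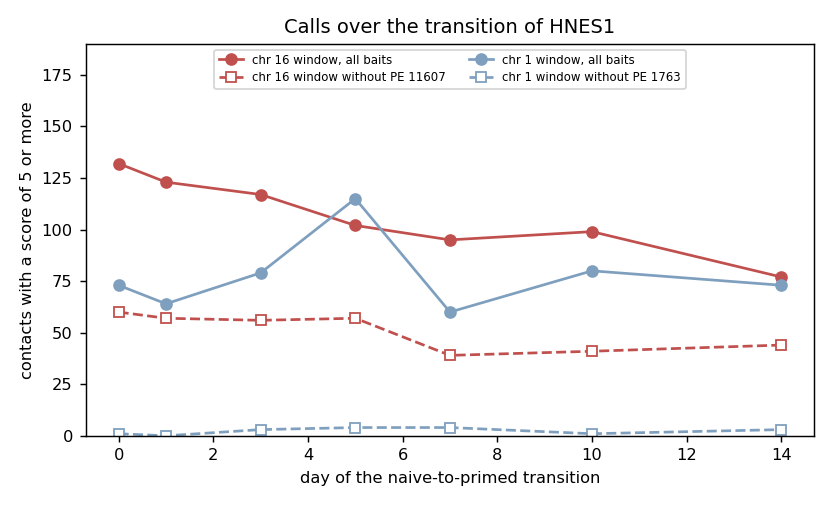
Number of contacts with a score of 5 or more (vertical axis) on each day of the naive-to-primed transition (horizontal axis, days) for the chromosome 16 and chromosome 1 windows, with all baits (filled, solid) and without the bait with the most contacts (open, dashed). Chromosome 16 goes from 132 to 77 while chromosome 1 peaks at 115 on day 5.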

How the data were processed

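Members and gene lists were chosen with earlier results of these data known. The authors deposited 1 matrix of CHiCAGO interaction scores, per the labels, with 1 pooled column for the 2 libraries of each of 10 conditions. Coordinates are on GRCh38, per the submitters' processing notes. Aligner, caller version, binning and filters are not given in the sources used here. Contacts were called at a score of 5 or more with Python 3.11.15, pandas 2.3.3, numpy 2.4.6 and scipy 1.17.1. Shares have 95% Wilson intervals. Correlations with the day used exact permutation tests with Benjamini-Hochberg adjustment. Counting and correlation were tested on simulated data. The longest run of bases without a listed fragment was found on each chromosome from the matrix. Genes within 1 kb came from RefSeq on GRCh38. Without a genome, satellite content, GC and mappability were not analysed here, and no sequences are shown.

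Named contacts were the 10 within and 10 between chromosomes with the highest lowest score among those called in all 10 conditions. Named baits were the 10 with the most such contacts, ties by total calls. Named places were megabases with the most such contacts and the 5 with the most contacts. Contacts called in 5 to 9 conditions, fragment B, bait pairs and the genes beside them were named after their values were seen. Whether the 2 libraries of a condition came from separate cultures is not stated beyond harvest in duplicate.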

Additional observations from a re-analysis of the deposited data

How the results depend on the processing

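The mean number of calls per condition was 270 for both windows (41.7 within and 229 between chromosomes). At a score of 10 or more it was 61.8, 25.5 and 36.3, and with windows narrowed by 1 Mb 3.30, 0.100 and 3.20, since nearly all calls lie in their outer megabases. Merging other ends within 10 kb left 17.9 within chromosomes. The 11 contacts called in all 10 conditions became 31 at 8 or more conditions, 18 without DE and NE, 0 with narrowed windows and 7 without Poised Enhancer1763. Counting each pair once left 10 of them. Their share of 15.7% of the series became 3.54% at a score of 3, 58.8% at a score of 10, 2.75% with other ends merged and 0% with narrowed windows. The share of partners in the other window, 3.33%, became 15.8% among contacts reaching a score of 10 and 0.468% without Poised Enhancer1763. Partners beside a stretch, 9.63% at 1 Mb, were 15.6% at 2 Mb, 21.0% at 5 Mb and 6.94% without the 2 largest baits; these 3 settings and the day correlations by window were chosen after seeing the data. The correlation with the day within chromosomes turned from 0.20 to -0.08 without days 10 and 14. For the chromosome 16 window alone, a split made after seeing the data, r was -0.96, and it was -0.68 at a score of 10, -0.99 without days 10 and 14, -0.87 without the naive state and day 14 and -0.80 without Poised Enhancer11607; it is a description of 7 pooled values and supports no call. In 44 of 69 comparisons of a result with an alternative setting the value stayed within 1.5 times, its interval or its side of the threshold. This count overstates stability. A correlation that had not passed counted as unchanged while it stayed unpassed with the same sign, as when that of all calls went from -0.71 to -0.11. The share of partners in the other window could not move at a score of 3, since each listed contact reached 5. No paired analysis was possible because the columns hold 1 pooled value per condition and carry no replicate number. Leaving out a replicate was not possible for the same reason, and with read depth unknown no limit of detection can be given.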
